A study of Homo sapiens with 6 samples.

Results

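The genes described here are the replication-dependent core histone genes and the linker histone genes, whose current symbols begin with H1-, H2AC, H2BC, H3C or H4C followed by a number, without pseudogenes. Of the 63236 genes in the deposited table, 73 were members, namely 10 of the H1, 17 of the H2A, 18 of the H2B, 13 of the H3 and 15 of the H4 family. The table spells these genes by older symbols (HIST1H2BK for H2BC12), so 69 members were found through their Ensembl gene ID and 4 (H2AC18, H2AC19, H3C2 and H3C3) through the older symbol. RNA was compared between 3 shNEG libraries, from cells with a scrambled control shRNA, and 3 shSPINK2 libraries, from cells with an shRNA to the protease inhibitor gene SPINK2. All came from FUJIOKA, a line derived from human acute myeloid leukaemia, transduced with a puromycin-selected Tet-pLKO-puro vector in which doxycycline induces the shRNA. The labels list 2 SPINK2 shRNAs without saying which library carries which, the methods list 1, and neither the time on doxycycline of the sequenced cells nor whether the libraries of a group are separate cultures is given, so that p-values measure only the spread between these libraries, which may be technical.

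Replication-dependent histone genes lie in clusters, mostly lack introns, and are transcribed in S phase, when new DNA has to be packaged. Their mRNAs do not end in a poly(A) tail but just past a short stem-loop, which the stem-loop binding protein SLBP recognises for processing, translation and decay. H2A, H2B, H3 and H4 form the nucleosome core, and H1 binds the linker DNA. H1-10 is a linker histone made outside S phase from a polyadenylated mRNA, whereas H1-6, H1-7 and H1-8 are germ cell variants. The libraries were made with an mRNA kit, and whether poly(A) selection was used is not given in the sources used here, so the levels below are those of the mRNA that entered these libraries.

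The stem-loop was searched in the GRCh38 sequence up to 200 bases past the stop codon of each member, as a stem GGCTCT, a loop TTTN and a stem AGAGCC. With up to 1 mismatch in the stems it was present in 52 of 73 members, 50 of them exact, comprising 17 of 17 H2A, 17 of 18 H2B, 12 of 13 H3 and 6 of 10 H1 members but 0 of 15 H4 members. Allowing 2 mismatches added 14 of the 15 H4 members, all with the stems GGCCCT and AGGGCC, so the H4 family carried its own form of the element. Members with no match in this window included H1-10, H1-7, H1-8, H2BC10, H3C6 and H4C13. The stem-loop began 23 to 68 bases past the stop codon, and in 64 of 66 members with a match the shortest transcript in GENCODE release 44 ended within 20 bases past it. The windows of some called members with a match are given 5′ to 3′ as DNA, with the stem-loop in capitals.
H2BC12 (chr6:27146361-27146386, minus strand): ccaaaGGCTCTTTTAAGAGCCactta
H2BC15 (chr6:27839085-27839110, plus strand): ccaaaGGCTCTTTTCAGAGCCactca
H2AC6 (chr6:26124664-26124689, plus strand): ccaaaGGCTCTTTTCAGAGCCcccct
H2AC20 (chr1:149887386-149887411, plus strand): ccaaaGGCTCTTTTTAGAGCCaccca
H3C11 (chr6:27871845-27871870, minus strand): caaaaGGCTCTTTTCAGAGCCcctca
H3C3 (chr6:26045844-26045869, plus strand): gaaaaGGCTCTTTTCAGAGCCactca
H4C9 (chr6:27139649-27139674, plus strand): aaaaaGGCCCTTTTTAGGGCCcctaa
H4C3 (chr6:26104312-26104337, plus strand): ccaaaGGCCCTTTTCAGGGCCgctca
The first 3 and H4C9 were higher in shSPINK2 and the other 4 were lower, of which H4C3 lost its call under DESeq2. H3C6, which was higher, and H1-10, which was lower, had no match and so have no window.

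Transcripts that run past the stem-loop could be looked for only in the 66 members with a match of up to 2 mismatches. Transcripts annotated to run more than 50 bases past it were present for 16 of these, 8 of them in the H2B, 4 in the H4, 3 in the H2A and 1 in the H3 family. By the calls given below, 4 of the 7 higher members (H2AC6, H2BC15, H2BC5 and H4C8), 1 of the 7 lower members (H2BC11) and 5 of the 17 members without a call had such a transcript. These counts are a description, and the annotation release that the authors counted on is not given in the sources used here.

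The deposited mean normalized counts sum to 38425214 reads per library, and the reads of each library were recovered from them as whole numbers for 98.4% of the genes with a mean of at least 5 (17813 of 18109). Recovered libraries carry no replicate number, so the 3 values of a group are listed in the order of their size factors, which ran from 0.985 to 1.03. The leukocyte and myeloid genes PTPRC, CD33, SPI1 and MPO had means of 9179, 7777, 10672 and 1844 normalized reads by the authors' table, while the progenitor markers CD34 and KIT were at 19.6 and 0.666. SPINK2 (ENSG00000128040.10, chromosome 4 from 56809860 to 56821742) had 56, 63 and 53 reads in shNEG and 7, 9 and 6 in shSPINK2. The groups did not overlap, and shSPINK2 minus shNEG came to a log2 fold change of -2.91 (SE 0.27, limma with Benjamini-Hochberg adjustment over 17813 genes, adjusted p = 9.06e-12). Called means an adjusted p under 0.05 in this test throughout, and fold changes are on the scale of log2(normalized reads + 0.5).

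The members took up little of these libraries. Their summed reads were 0.00761% to 0.00857% of the summed means in a library. In all 6 libraries 14 members had 0 reads, which by counting error alone allows up to 3 reads in a library. A further 28 had reads but a mean under 5, leaving 31 that were tested. The members at 0 were 3 H1, 4 H2A, 2 H2B, 3 H3 and 2 H4 genes. H1-10, with its mean of 1753 normalized reads, held 67.5% ± 0.9 (SD, n = 3) of the members' normalized reads in shNEG and 45.2% ± 1.7 in shSPINK2. H2BC12, with a mean of 509, held 10.3% ± 0.9 and 22.8% ± 1.0. The other members tested had means from 5.00 to 144 normalized reads. Reads of near-identical copies are uncertain, and 11 members share at least 50% of their exonic stretches of 150 bases, the length of a read, with another member. Of these, 9 were among the untested members, including the pairs H2AC18 and H2AC19, H3C14 and H3C15, and H4C14 and H4C15, and 2, H2AC14 and H4C12, were tested and not called. H2AC7 and H3C4, both at 0 reads, lie within a second gene model that spans them. That model had 1, 2 and 0 reads in shNEG and 2, 1 and 8 in shSPINK2.

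**Figure D1:**
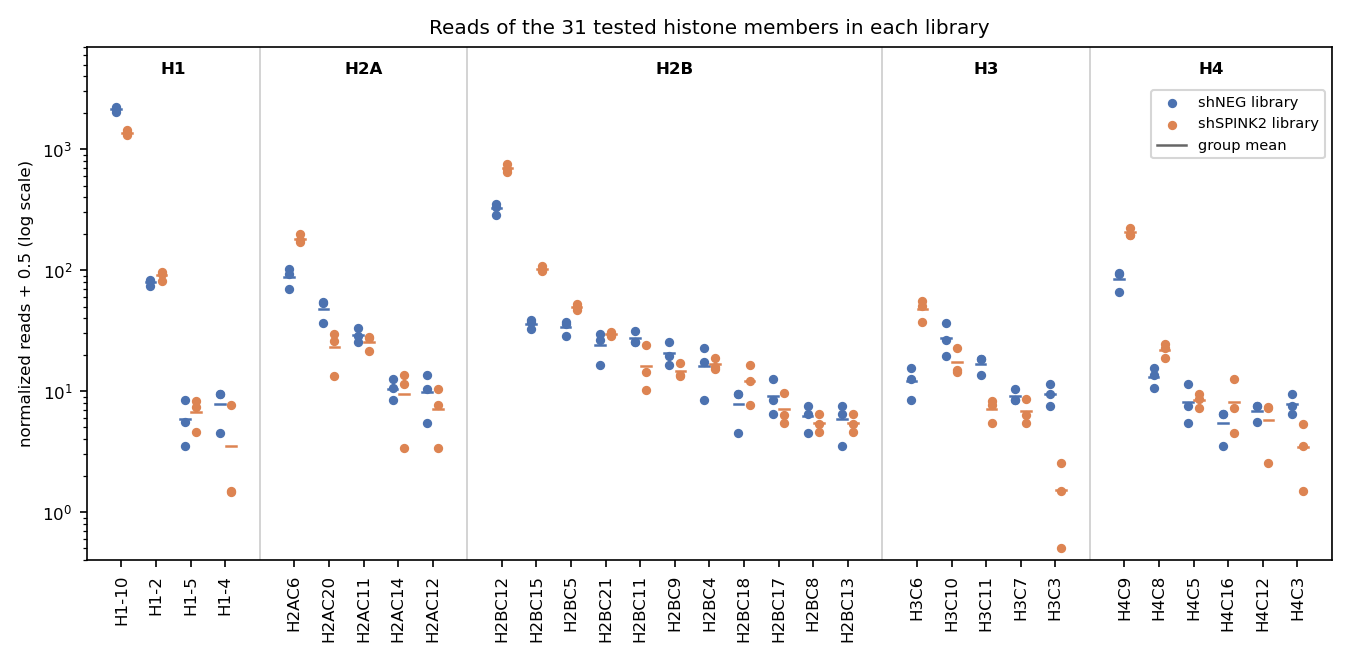
Normalized reads plus 0.5 (log scale) of the 31 tested members, by family, in the 3 shNEG and 3 shSPINK2 libraries, with points for libraries and bars for group means. H1-10 lies above all other members in both groups, and H2BC12, H2BC15, H2AC6, H3C6 and H4C9 have all shSPINK2 points above all shNEG points.

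Histone genes went both ways upon SPINK2 knockdown. Of the 31 tested members, 7 were higher in shSPINK2, 7 were lower and 17 were not called, so that 45.2% were called, against 52.5% of all genes tested (25.7% higher and 26.8% lower). Of the 25 members with a mean from 5 to 50, 9 were called, 3 higher and 6 lower, against 19.5% of all genes in that range (10.8% higher and 8.74% lower). Of the 6 members with a mean of at least 50, 5 were called, 4 higher and 1 lower, against 67.3% of all genes in that range. Whether the members' share differs from that of all genes was not tested. The median log2 fold change of the 31 was -0.16, and that of all genes tested was 0.0042. A call with an absolute log2 fold change over 1 was made for 10 members, 5 in each direction, and for 5.48% of all genes tested. The groups did not overlap for 13 members, 7 higher and 6 lower, and for 57.4% of all genes tested. Neither of these shares over all genes was split by read range, while 25 of the 31 members had a mean from 5 to 50, so they are no like-for-like comparison. Under DESeq2 on the same reads, 9 of the 14 calls remained, and the same 9 held without each library in turn. These were H2BC12, H2BC15, H4C9, H2AC6 and H3C6, which were higher, and H1-10, H2AC20, H3C11 and H3C3, which were lower. The other 5, H1-4, H2BC5, H2BC11, H4C8 and H4C3, are given below with the values that lose the call.

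**Figure D2:**
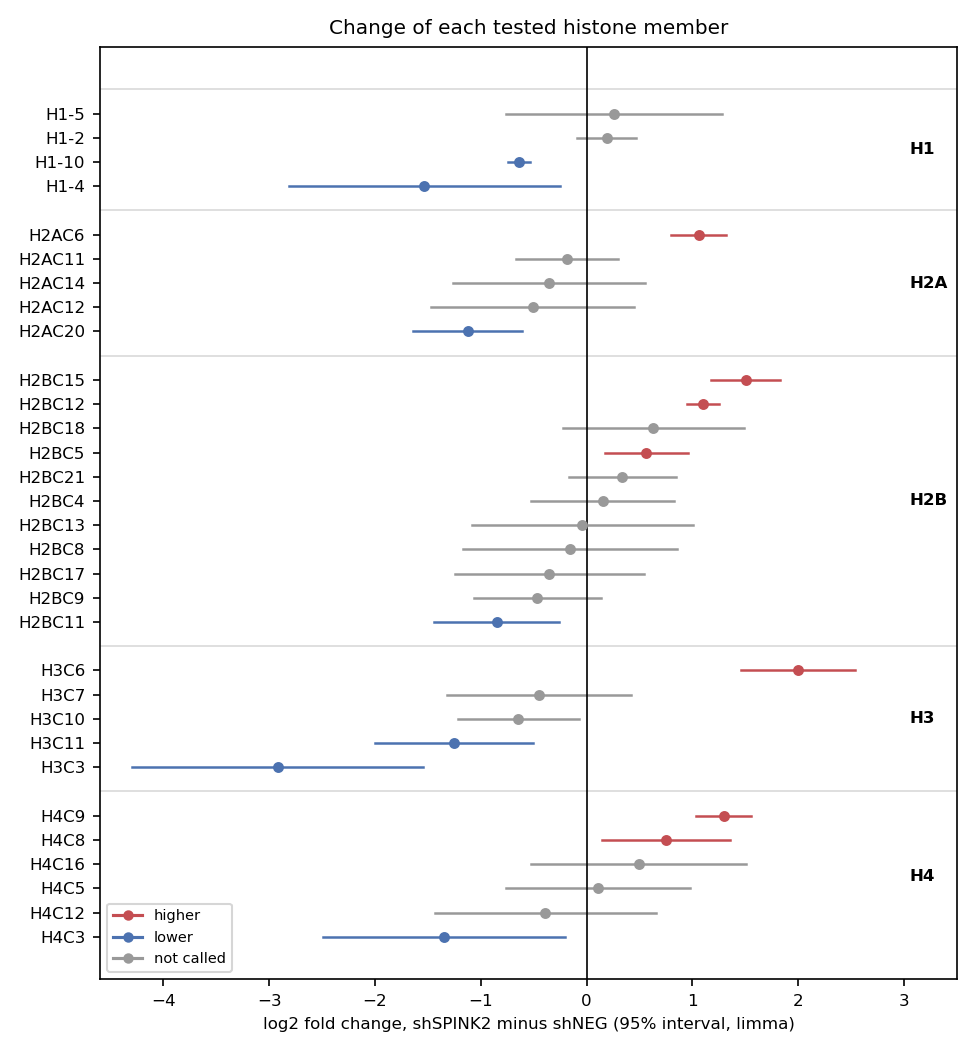
Log2 fold change of shSPINK2 minus shNEG for the 31 tested members, by family, with 95% intervals from limma, in red where called higher, in blue where called lower and in grey otherwise. Each core family holds members called in either direction, and H1 holds only lower ones. The single lower calls of H2B (H2BC11) and H4 (H4C3) were lost under DESeq2.

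In the H1 family, 2 of the 4 tested members were lower and 0 were higher. H1-10 (ENSG00000184897.5, chromosome 3 from 129314771 to 129316286, minus strand) encodes the H1X linker histone and was the most-read member per kilobase of exon in shNEG. It had 2045, 2141 and 2220 reads in shNEG and 1480, 1312 and 1364 in shSPINK2. All shSPINK2 libraries were below all shNEG libraries, at a log2 fold change of -0.64 (SE 0.05, limma adjusted p = 2.76e-13, n = 3 per group), a level 1.56-fold lower. Its exons overlap those of the antisense gene H1-10-AS1, and without a stated strand setting their reads cannot be told apart, but that gene had 11 to 28 reads in a library and was not called (log2 fold change -0.44, limma adjusted p = 0.264).

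H1-2, a replication-dependent linker histone of the chromosome 6 cluster, had 74, 81 and 82 reads in shNEG and 100, 82 and 91 in shSPINK2. The groups overlapped, and the log2 fold change of 0.19 was not called (95% interval -0.09 to 0.47, limma adjusted p = 0.27). The interval leaves out a fall of the size seen for H1-10. H1-4 had 9, 9 and 4 reads in shNEG and 1, 1 and 7 in shSPINK2. Its groups overlapped although it was called lower (log2 fold change -1.54, SE 0.63, limma adjusted p = 0.0397), and the ratio of summed reads was 0.406 (exact 95% interval 0.164 to 0.917 for counting error only). The call was lost under DESeq2 (adjusted p = 0.218) and edgeR (adjusted p = 0.0669) and without 4 of the 6 libraries. H1-5 had 3 to 8 reads in each library and a log2 fold change of 0.26 (95% interval -0.76 to 1.28), which turned to -0.065 without the first shNEG library.

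In the H2A family, 1 of 5 tested members was higher and 1 was lower. H2AC6 (ENSG00000180573.9, chromosome 6 from 26124145 to 26139116, plus strand) had 92, 70 and 101 reads in shNEG and 175, 178 and 196 in shSPINK2. The groups lay well apart, at a log2 fold change of 1.06 (SE 0.13, limma adjusted p = 5.75e-09), a 2.09-fold higher level. GENCODE release 44 holds 3 transcripts of H2AC6, of which 2 are spliced and run up to 14432 bases past its stem-loop. Its exons also overlap those of another gene model on its own strand. H2AC20 (ENSG00000184260.5, chromosome 1 from 149886918 to 149887411, plus strand), in the smaller cluster, had 54, 36 and 53 reads in shNEG and 30, 13 and 25 in shSPINK2. It fell without overlap of the groups, at a log2 fold change of -1.13 (SE 0.25, limma adjusted p = 0.000247). H2AC11, H2AC12 and H2AC14 had log2 fold changes from -0.51 to -0.19 and were not called.

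The H2B family had the most tested members, of which 3 of 11 were higher, 1 was lower and 7 were not called. H2BC12 (ENSG00000197903.7, chromosome 6 from 27146361 to 27146855, minus strand) had 336, 288 and 349 reads in shNEG and 705, 653 and 743 in shSPINK2. Every shSPINK2 library exceeded every shNEG library, and the log2 fold change was 1.10 (SE 0.08, limma adjusted p = 4.94e-15), a 2.14-fold higher level. Per kilobase of exon, H2BC12 stood at 655 normalized reads in shNEG against 1408 for H1-10, and at 1403 in shSPINK2 against 905 for H1-10, so the order of both members changed.

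H2BC15 (ENSG00000233822.4, chromosome 6 from 27838545 to 27855709, plus strand) had 32, 37 and 38 reads in shNEG and 101, 108 and 99 in shSPINK2. This was the largest rise in the family, at a log2 fold change of 1.503 (SE 0.16, limma adjusted p = 3.86e-10). H2BC5 had 28, 37 and 35 reads in shNEG and 51, 47 and 51 in shSPINK2, a smaller rise of 0.57 on the log2 scale (SE 0.20, limma adjusted p = 0.0143) that was not called by DESeq2 (adjusted p = 0.0778) or without 1 of the libraries. H2BC11 had 25, 31 and 25 reads in shNEG and 10, 14 and 23 in shSPINK2. It was the only H2B member called lower (log2 fold change -0.85, SE 0.29, limma adjusted p = 0.014), and the call was lost under DESeq2 (adjusted p = 0.0902) and without 2 of the libraries. H2BC21, H2BC9, H2BC4, H2BC18, H2BC17, H2BC8 and H2BC13 had log2 fold changes from -0.47 to 0.63 with intervals that spanned 0.

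In the H3 family, 1 of 5 tested members was higher and 2 were lower, and the family held the widest range of changes. H3C6 (ENSG00000274750.2, chromosome 6 from 26224199 to 26227473, plus strand) had 15, 12 and 8 reads in shNEG and 38, 56 and 49 in shSPINK2. It rose 4.00-fold, at a log2 fold change of 2.00 (SE 0.27, limma adjusted p = 5.4e-08). H3C11 had 18, 13 and 18 reads in shNEG and 8, 5 and 7 in shSPINK2, lower at a log2 fold change of -1.25 (SE 0.37, limma adjusted p = 0.00427). H3C3 (ENSG00000278272.1 in the table, chromosome 6 from 26045384 to 26045869, plus strand) had 7, 11 and 9 reads in shNEG and 0, 1 and 2 in shSPINK2. Its log2 fold change was -2.92 (SE 0.68, limma adjusted p = 0.000374), and the ratio of its summed reads, 3 against 27, was 0.110 (exact 95% interval 0.0214 to 0.358). With so few reads the size was uncertain, at -1.91 with a pseudocount of 2, -3.86 with 0.1 and -2.27 without the first shSPINK2 library, with the call kept in each. H3C10, with 19, 36 and 26 reads in shNEG and 15, 14 and 22 in shSPINK2, lay at the threshold (log2 fold change -0.64, limma adjusted p = 0.0542). It was called lower by edgeR (adjusted p = 0.0427), by limma on protein-coding genes only (adjusted p = 0.0386) and without 2 of the libraries. DESeq2 did not call it (adjusted p = 0.152).

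In the H4 family, 2 of 6 tested members were higher and 1 was lower. H4C9 (ENSG00000276180.1, chromosome 6 from 27139282 to 27139678, plus strand) had 65, 95 and 92 reads in shNEG and 200, 226 and 193 in shSPINK2. All shSPINK2 libraries were above all shNEG libraries, at a log2 fold change of 1.30 (SE 0.13, limma adjusted p = 6.24e-11), a 2.46-fold higher level. H4C8 had 15, 13 and 10 reads in shNEG and 19, 24 and 22 in shSPINK2 (log2 fold change 0.75, SE 0.30, limma adjusted p = 0.0322). The call was lost under DESeq2 (adjusted p = 0.135) and without 3 of the libraries. Exons of H4C8 overlap those of another gene model on the other strand, and the strand setting is not given. H4C3 had 6, 7 and 9 reads in shNEG and 5, 1 and 3 in shSPINK2. It was called lower (log2 fold change -1.34, SE 0.56, limma adjusted p = 0.0439), a call lost under DESeq2 (adjusted p = 0.185) and without 5 of the 6 libraries.

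Normalized reads were also summed over all members of each family, with and without the member of highest mean over both groups. For H3C6, which had fewer reads than H3C10 and H3C11 in shNEG, this mean was lifted by its own rise, so leaving it out lowers the ratio by construction. The H1 sum was 2228 ± 95 (SD, n = 3) in shNEG and 1476 ± 73 in shSPINK2, a log2 ratio of -0.59, and without H1-10 the ratio turned to 0.13. The H2A sum was 201 ± 25 and 262 ± 26, at 0.38, and without H2AC6 it turned to -0.50. The H2B sum rose from 516 ± 32 to 954 ± 57, at 0.89, and without H2BC12 it was 0.44. The H3 sum was 84.9 ± 2.8 and 89.4 ± 14.5, at 0.07, and without H3C6 it was -0.80, at 73.3 ± 0.7 against 42.1 ± 10.3. The H4 sum was 128 ± 17 and 257 ± 18, at 1.00, and without H4C9 it was 0.25. The sum over all 73 members was 3159 ± 123 in shNEG and 3039 ± 114 in shSPINK2, a log2 ratio of -0.056, and without H1-10 and H2BC12 the ratio was 0.47. The sum over the 63 core histone members was 930 ± 48 in shNEG and 1563 ± 87 in shSPINK2, at 0.75. Within it, H2BC12 alone went from a mean of 324 to 694 normalized reads. As given above, without the member of highest mean the H2A and H3 sums were lower in shSPINK2 and the H2B and H4 sums higher. In the H2B sum without H2BC12 (192 in shNEG, 260 in shSPINK2), H2BC15 went from 35.6 to 102. In the H4 sum without H4C9 (44.3 and 52.8), H4C8, whose call was lost under DESeq2, went from 12.7 to 21.5. In the H2A sum without H2AC6 (114 and 80.4), H2AC20 went from 47.6 to 22.4. Each of these remainders thus moved largely with that further member. All sums are a description without a test.

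**Figure D3:**
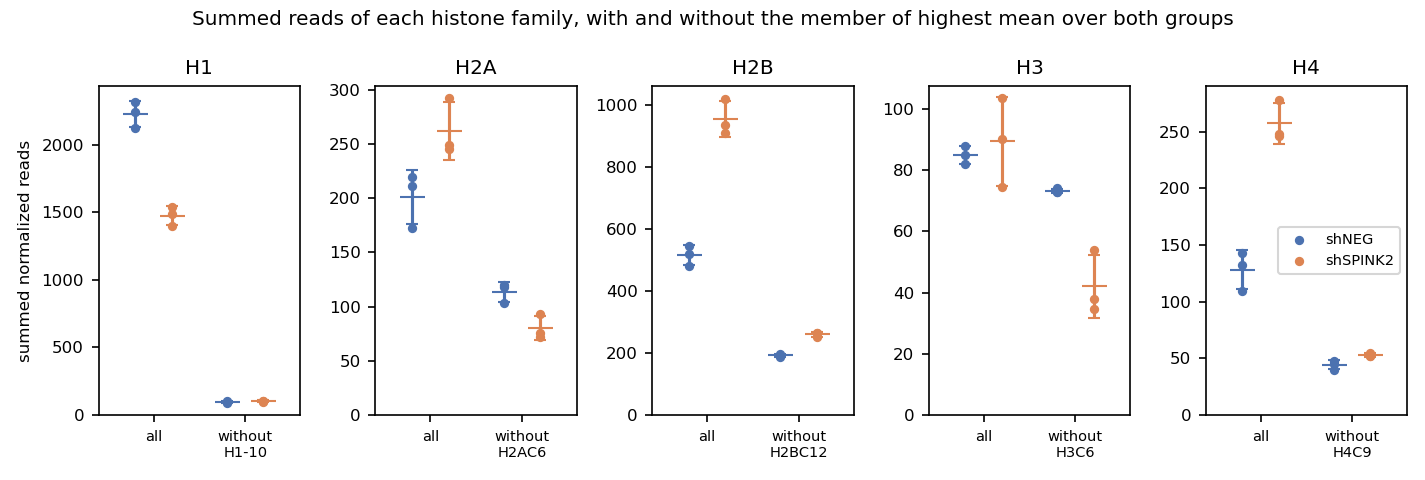
Summed normalized reads of each family in the 3 shNEG and 3 shSPINK2 libraries (points), with mean and SD, for all members and without the member of highest mean over both groups. The H2B and H4 sums of shSPINK2 lie above those of shNEG with and without H2BC12 and H4C9. Without these, the sums still hold H2BC15 and H4C8, which were called higher, H4C8 not under DESeq2. The log2 ratio of the H2A sum is 0.38 with and -0.50 without H2AC6.

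Of the members, 55 lie on chromosome 6, 13 on chromosome 1, 2 each on chromosomes 3 and 12, and 1 on chromosome 22. Divergent neighbours whose starts lie within 500 bases formed 13 pairs, 12 of them of an H2A and an H2B gene, and both members were tested in 4. The promoters, from RefSeq (GRCh38.p14, 250 bases before to 50 after the start), were found for 67 members, some with 2 starts, giving 72 promoters. The octamer ATTTGCAT, read by POU domain factors and classically described in H2B promoters, was present on either strand in 15 of 20 H2B and 11 of 16 H2A promoters, in 1 of 13 H3, and in 0 H1 and 0 H4 promoters, against 1.77% of all 35116 promoters. The single H3 entry is an upstream start of H3C4 with the same coordinates as the H2AC7 promoter. CCAAT was present in 83.3% of the members' promoters against 34.6% of all, and TATAAA in 63.9% against 11.5%. A match is a description and not a site. H2BC15 and H2BC5, which rose, had no octamer in this window, whereas H2BC12, which rose, and H2BC11, which fell, had 1 each. In 8 of the 13 divergent pairs a single octamer window lay in the promoters of both members, among them 3 of the 4 pairs with both members tested. The windows of these 3 pairs and of H2BC12 are shown, 5′ to 3′ on the strand of the first gene named, with the octamer in capitals. H2AC12, the neighbour of H2BC12, had no promoter entry and was not searched.
H2BC12 (chr6:27146886-27146915, minus strand): ctcttcaccttATTTGCATgagaggtccta
H2BC11 and H2AC11 (chr6:27132824-27132853, minus strand): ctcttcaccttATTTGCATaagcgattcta
H2BC21 and H2AC20 (chr1:149886710-149886739, minus strand): tcggagccctaATTTGCATaaggtggttat
H2BC4 and H2AC6 (chr6:26124031-26124060, minus strand): tttcatacctcATTTGCATagctctgccca

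Of the 4 pairs, each held 1 called member and 1 that was not called. H2BC12 rose while H2AC12, with 5, 10 and 13 reads in shNEG and 3, 10 and 7 in shSPINK2, had a log2 fold change of -0.51 (95% interval -1.47 to 0.45). The log2 ratio of H2AC12 over H2BC12 was -5.14 ± 0.69 (SD, n = 3) in shNEG and -6.75 ± 0.85 in shSPINK2. H2AC20 fell while H2BC21 had 29, 26 and 16 reads in shNEG and 29, 29 and 30 in shSPINK2, and the log2 ratio of H2AC20 over H2BC21 went from 1.01 ± 0.63 to -0.45 ± 0.61. H2AC6 rose while H2BC4 had 17, 8 and 22 reads in shNEG and 19, 15 and 15 in shSPINK2, and their log2 ratio went from 2.54 ± 0.46 to 3.45 ± 0.26. Exons of H2BC4 overlap those of HFE and of another gene model on the other strand. For H2AC11 over H2BC11 the log2 ratio went from 0.08 ± 0.08 to 0.74 ± 0.63. In each of the 4 pairs the ratios of the groups did not overlap, with an exact two-sided permutation p of 0.1. This is the smallest that 3 against 3 can give, so none could pass 0.05. The called member of each pair did not overlap between groups by itself, so these ratios largely repeat its call and are no separate result.

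The genes that make, process and use histones were compared next, since histone mRNA belongs to S phase. At a mean of at least 50, which all tested genes of these lists had except H3-5, 67.3% of all genes were called, and the shares below stand beside that value. Of the genes of DNA replication, 17 of 17 tested were lower in shSPINK2, at a median of -0.88 on the log2 scale and values from -1.20 to -0.38. The reads of 3 more, MCM2, MCM3 and MCM7, were not recovered. RFC3, a subunit of the clamp loader, was at the lower end (-1.20, SE 0.05, limma adjusted p = 1.54e-22), with 6958, 7172 and 7141 reads in shNEG and 2995, 3302 and 3060 in shSPINK2. TK1, the thymidine kinase of the salvage pathway, was at the upper end (-0.38, SE 0.05, limma adjusted p = 1.07e-08). Fewer cells in S phase and less of these mRNAs per cell cannot be told apart in bulk RNA.

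Of the histone chaperones and their partners, 17 of 23 tested genes were lower, 1 was higher and 5 were not called (78.3% called), with a median of -0.54. DNAJC9, a co-chaperone that binds H3 and H4, fell the most (-1.41, SE 0.05, limma adjusted p = 3.15e-22), from 1886, 1982 and 2014 reads to 715, 767 and 753. CHAF1A, the large subunit of the CAF-1 complex that deposits H3 and H4 behind the fork, fell by 0.99 on the log2 scale (limma adjusted p = 4.07e-20). ASF1B, which hands these dimers to CAF-1, fell by 0.93 (limma adjusted p = 1.65e-20), and NASP, which holds the soluble H3 and H4 reserve, fell by 0.67 (limma adjusted p = 1.74e-16). UBN2 was the one called higher (0.26, SE 0.05, limma adjusted p = 3.18e-05), while UBN1, HIRA and CABIN1, which with it belong to the HIRA complex, were lower at -1.06, -0.30 and -0.21. The reads of 5 further chaperone genes, NAP1L1, MCM2, SET, NPM1 and ANP32E, were not recovered, and these were not tested.

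Of the genes of histone mRNA synthesis and processing, 17 of 28 tested were lower, 3 were higher and 8 were not called (71.4% called, near the share of all genes in this range), with a median of -0.21. SLBP had 4343, 4174 and 4395 reads in shNEG and 2702, 2951 and 2782 in shSPINK2, and fell by 0.63 on the log2 scale (SE 0.05, limma adjusted p = 3.27e-14). NPAT, the coactivator of the histone clusters, changed less (-0.22, SE 0.06, limma adjusted p = 0.00283). E2F1, a transcription factor of S phase entry, was the lowest of the list (-1.06, SE 0.06, limma adjusted p = 1.35e-16), and NCBP2, the small subunit of the cap-binding complex, was the highest (0.35, SE 0.04, limma adjusted p = 1.03e-08).

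Of the replacement histone variants, made from polyadenylated mRNAs in all phases or with a role outside replication, 6 of 8 tested were lower, 0 were higher and 2 were not called (75.0% called), with a median of -0.44. H2AX, the variant phosphorylated at DNA breaks, had 4460, 4129 and 4266 reads in shNEG and 1949, 1769 and 2066 in shSPINK2, at a log2 fold change of -1.17 (SE 0.05, limma adjusted p = 1.44e-20). H2AZ1, the promoter variant, was at 10874 normalized reads per kilobase of exon in shNEG and 6335 in shSPINK2, above every replication-dependent member, and was lower by a log2 fold change of -0.78 (SE 0.04, limma adjusted p = 2.17e-18). H3-3A was not called (-0.06, SE 0.05, limma adjusted p = 0.239), and H3-5, at 4 to 12 reads in a library, had a log2 fold change of 0.36 (limma adjusted p = 0.506). Among the members and these lists, the calls above a log2 fold change of 1 were those of H2AC6, H2BC12, H2BC15, H3C6 and H4C9. Differences between the families, and between the members and the lists, were not tested.

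**Figure D4:**
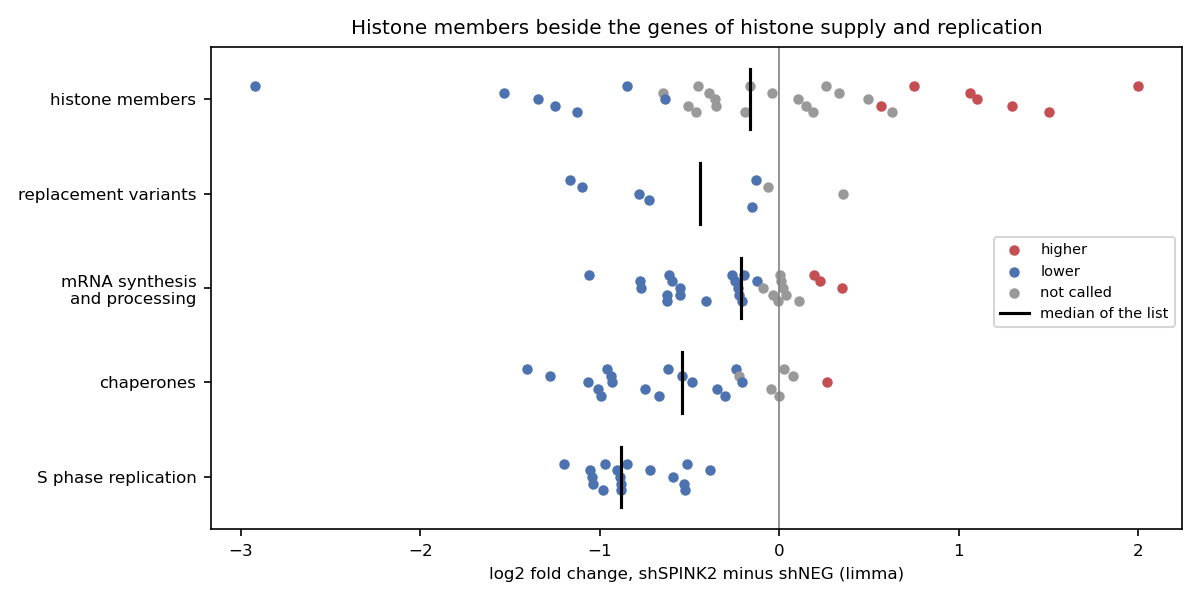
Log2 fold change of shSPINK2 minus shNEG for the 31 tested histone members and for the tested genes of 4 companion lists, in red where called higher, in blue where called lower and in grey otherwise, with black bars for medians. All 17 replication genes tested, of 20 listed, lie below 0, while the members spread from -2.92 (H3C3, which moves with the pseudocount) to 2.00.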

How the data were processed

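Libraries of FUJIOKA mRNA (Optimal Dual-mode kit, paired reads of 150 bases) were aligned by the authors to GRCh38 with STAR 2.7.11 and counted with featureCounts, per the methods and processing notes, and compared with DESeq2 1.40.0. The annotation release and strand setting are not given in the sources used here. The authors deposited 1 signal per gene, the mean over 6 libraries of counts divided by size factors, and their own log2 fold change, standard error, test statistic, p-value and adjusted p-value. Those comparison columns are not reported. The deposited log2 fold change and its standard error served as a key only, to assign each recovered size factor to a group and to pick the whole-number solution.

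Genes with 1 read in 1 library gave the 6 size factors, and each gene's mean was solved for whole reads in the 6 libraries. Where the mean was 5 or more (18109 genes), 98.4% were recovered (all values whole), and edgeR called 9382 genes on these reads. Means over 25000 were not attempted. Recovery and test were also run on simulated data, but the outcome is not given here, so no conclusion is drawn from that run. In the highest range of means attempted, which ends at 25000 and includes H2AZ1, 77.0% of genes were recovered (379 of 492). The depth of recovered reads, 26983350 to 27897545 per library, leaves out the most abundant genes, and no molecular identifiers are described, so the exact intervals of read ratios and the floor of 3 reads cover counting error only, while intervals of fold changes come from limma and rest on the spread between libraries.

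Groups were compared with limma 3.58.1 (trend) on log2(normalized reads + 0.5) over 17813 genes, adjusted by Benjamini-Hochberg, in R 4.3.3 with edgeR 4.0.16 and DESeq2 1.42.0 as alternatives. Exon lengths and positions came from GENCODE release 44. Companion genes were taken from 4 lists. Of these lists' symbols, 4 of the variants (3 of which are members under their current symbols) and ARS2, an older name of SRRT, had no row of their own. Named were SPINK2, members with a mean of at least 50, the extremes and the most-read member of each family, the extremes of each list, and SLBP, NPAT, H2AX, H2AZ1, H3-3A, CHAF1A, ASF1B and NASP. Further members were named after their values were seen. Members and lists were chosen with earlier results of these data known. Results of single items withheld from this text are not reported here.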

Additional observations from a re-analysis of the deposited data

How the results depend on the processing

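No paired analysis was possible because the recovered libraries carry no replicate number. With an absolute log2 fold change over 1 also required, 976 of all genes were called instead of 9351. Among them were 1 H1, 2 H2A, 2 H2B, 3 H3 and 2 H4 members, and 2 variant, 1 processing, 4 chaperone and 4 replication genes. Of the 14 members called, 5 remained to be counted with a mean of at least 50 (1 H1, 1 H2A, 2 H2B and 1 H4, where fewer genes were tested). DESeq2 called 9, and 9 were called at an adjusted p under 0.01 (each 1 H1, 2 H2A, 2 H2B, 3 H3 and 1 H4). Of the H1 members, 1 was called by edgeR or with a pseudocount of 2. The cause was not tested. Without each library in turn, 11 to 13 members were called, with 1 to 2 in H1, 3 to 4 in H2B and H3 and 1 to 3 in H4, and SPINK2 stayed between -3.06 and -2.80. At a mean of at least 50, SPINK2 was not tested. Family sums without the member with the highest mean had log2 ratios of 0.13 (H1), -0.50 (H2A), 0.44 (H2B), -0.80 (H3) and 0.25 (H4), and the H3 sum ranged from -0.045 to 0.19 without each library, at -0.045 without the third shSPINK2 library. Without each library, H1-5 ranged from -0.065 (without the first shNEG library) to 0.58 and H3-5 from -0.070 (without the third) to 0.60. Of the other values for single genes, 408 kept direction and call and 30 kept the direction only. Members with few reads limit these comparisons, since 42 of 73 were not tested.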
